A study of Bos taurus with 15 samples.

Results

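TLR2, TLR4 and CD14 are cell surface receptors with which white blood cells sense bacteria. They were taken as 3 of the 27607 genes of the raw count table by their Ensembl IDs, ENSBTAG00000008008 (TLR2), ENSBTAG00000006240 (TLR4) and ENSBTAG00000015032 (CD14), a rule that sets no threshold on a measured value, although the genes were proposed with earlier results of these data known. The samples were peripheral white blood cells (PWBC), the mixed leukocytes left after red cell lysis, of Angus-Simmental crossbred heifers bled at weaning. Breeding came later and was alike for all heifers, with synchronized estrus, artificial insemination (AI) at a fixed time and then exposure to bulls. Blood of 8 heifers that became pregnant to AI (AI-P) and of 7 not-pregnant heifers (NP) was used, with 1 library each, and the study left out heifers that conceived to a bull. For the NP heifers the labels say only that no pregnancy to AI followed, without mention of bulls.

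TLR2 recognizes bacterial lipoproteins and peptidoglycan fragments together with TLR1 or TLR6. TLR4 binds the lipopolysaccharide of Gram-negative bacteria in a complex with the small protein MD-2. CD14 is a co-receptor without a signalling domain of its own that hands lipopolysaccharide to TLR4 and also assists TLR2, and among blood leukocytes it is a classical surface marker of monocytes. Both Toll-like receptors signal through the adaptor MYD88 to NF-kB. In a mixture such as PWBC, a lower level can come from fewer cells of a type or from less RNA per cell, and these cannot be told apart here.

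All 3 genes had reads in every heifer, between 26 (CD14, heifer 48) and 1252 (TLR2, heifer 33), and all 3 passed the filter on low counts. Levels are given as CPM (counts scaled to a common library total) after TMM, a scaling that corrects each library for size and composition. Total counts on genes lay between 15987111 and 24909038 per heifer, and TMM factors between 0.842 and 1.14. On the first principal component of all other tested genes, which held 38.3% of their variance, heifer 4 (AI-P) scored -33.8 among the NP heifers and heifer 37 (NP) scored 21.2 among the AI-P heifers. Differences between the groups are therefore also given without these heifers. Since they were picked for lying with the other group, leaving them out favours a difference between the groups (718 genes called with all heifers and 2451 without them), and those values are a description. The deposited tables give no gene names, so leukocyte markers other than CD14 were not looked up and the cell makeup of the libraries was not checked.

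The groups were compared to ask whether the receptor genes already differed at weaning between heifers with different later outcomes. CD14 was 3.37-fold higher in heifers pregnant to AI, TLR4 was 1.47-fold higher, and TLR2, with a fold of 1.05, did not pass the test. With 1 surrogate variable, a library factor estimated from the counts, the log2 fold changes of CD14 and TLR4 went from 1.75 and 0.56 to 1.0 and 0.27 and neither was called (edgeR adjusted p = 0.501 and 0.616). With that variable 0 of the 12270 genes tested were called. Without it 2 of the 3 receptor genes, CD14 and TLR4, were called, both in the same direction. In that fit 5.85% of the 12270 genes tested were called and 3.66% were called as higher in AI-P heifers. A gene was called where edgeR's quasi-likelihood test gave an adjusted p no higher than 0.05 and the log2 fold change was 0.5 or more in size.

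**Figure D1:**
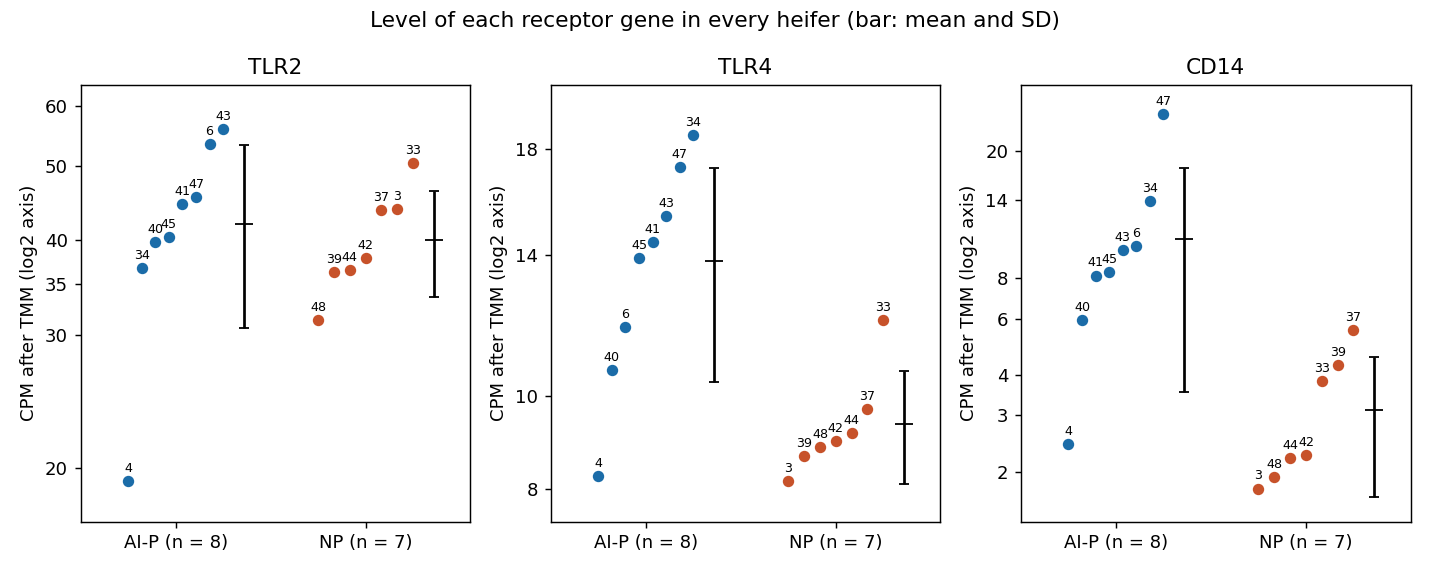
Levels of TLR2, TLR4 and CD14 in CPM after TMM (log2 axis) in every heifer, labelled by heifer ID, with the mean and SD of each group beside the points. Heifer 4 sits at the bottom of the AI-P group in every panel, while the other 7 AI-P heifers lie above all 7 NP heifers for CD14.

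CD14, the co-receptor, showed the widest range. In AI-P heifers its lowest level was 2.45 CPM (heifer 4), its median 9.09 CPM and its highest 25.9 CPM (heifer 47). In NP heifers the lowest level was 1.78 CPM (heifer 3), the median 2.26 CPM and the highest 5.53 CPM (heifer 37). Thus 7 of the 8 AI-P heifers were above every NP heifer, and heifer 4 lay among the NP heifers. The means were 10.6 ± 7.03 CPM (SD, n = 8) and 3.12 ± 1.44 CPM (SD, n = 7). The log2 fold change was 1.75 (standard error 0.40, 95% interval 0.91 to 2.60, edgeR Benjamini-Hochberg adjusted p = 0.0273), and by its p-value CD14 ranked 199 among the genes tested.

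Within the NP heifers CD14 values lay in 2 ranges, a description made after the values were seen, and no heifer of this group stood apart by Dixon's criterion. Heifers 3, 48, 44 and 42 had between 1.78 and 2.26 CPM, and heifers 33, 39 and 37 had between 3.83 and 5.53 CPM. The counts behind the first of these sets were only 26 to 40 per library, which gives heifer 48 an exact Poisson 95% interval of 1.26 to 2.83 CPM and heifer 42 one of 1.61 to 3.07 CPM. These 4 heifers were therefore not distinguishable by counting error, while the interval of heifer 33, 3.10 to 4.68 CPM, lay above those of heifers 3, 42, 44 and 48. Such intervals cover counting error only.

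Since heifer 4 was the only AI-P heifer not above every NP heifer for CD14, the groups do not overlap without it by construction. Groups without overlap were found for 2.58% of the tested genes with that heifer left out and for 0.53% with all heifers. Without heifers 4 and 37 the log2 fold change of CD14 was 2.10 (edgeR adjusted p = 0.000529) and that of TLR4 was 0.65 (edgeR adjusted p = 0.00293), and both genes were called where 9.83% of genes were called as higher in AI-P heifers. With single heifers left out, the log2 fold change of CD14 was lowest without heifer 47, at 1.42. The call of CD14 was lost without heifer 34, 39, 42 or 48, with edgeR adjusted p-values of 0.0545, 0.0555, 0.0520 and 0.0634.

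TLR4, the lipopolysaccharide receptor, differed by less but in the same direction. Its level in AI-P heifers was lowest at 8.24 CPM (heifer 4), had a median of 14.2 CPM and was highest at 18.7 CPM (heifer 34). In NP heifers the lowest level was 8.15 CPM (heifer 3), the median 8.97 CPM and the highest 12 CPM (heifer 33). Of the 8 AI-P heifers, 5 were above every NP heifer, and heifers 6 and 40 were above all NP heifers but heifer 33. The means were 13.8 ± 3.45 CPM (SD, n = 8) and 9.35 ± 1.25 CPM (SD, n = 7), with a log2 fold change of 0.56 (standard error 0.16, 95% interval 0.23 to 0.89, edgeR Benjamini-Hochberg adjusted p = 0.0368).

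The call of TLR4 was close to both limits. Of the 15 fits with 1 heifer left out, 10 lost it (without heifer 3, 34, 39, 41, 42, 43, 44, 45, 47 or 48), with edgeR adjusted p-values between 0.0563 and 0.0818. The log2 fold change itself stayed between 0.48 (without heifer 34) and 0.64 (without heifer 4).

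TLR2, the lipoprotein receptor, had a lowest level of 19.3 CPM in AI-P heifers (heifer 4), a median of 42.5 CPM and a highest level of 56.1 CPM (heifer 43). In NP heifers the lowest level was 31.4 CPM (heifer 48), the median 37.9 CPM and the highest 50.5 CPM (heifer 33). The NP range lay inside the AI-P range, with only heifers 6 and 43 above every NP heifer and heifer 4 below all of them. TLR2 was higher in the AI-P heifer in 37 of 56 pairs, and in 37 of 49 pairs without heifer 4. The means were 42.0 ± 11.4 CPM (SD, n = 8) and 40.0 ± 6.37 CPM (SD, n = 7), and the log2 fold change of 0.07 (standard error 0.17) did not pass the test (edgeR Benjamini-Hochberg adjusted p = 0.801). Its 95% interval ran from -0.29 to 0.43, that is from a fold of 0.815 to one of 1.35. Without heifers 4 and 37 the log2 fold change was 0.20 (edgeR adjusted p = 0.212).

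**Figure D2:**
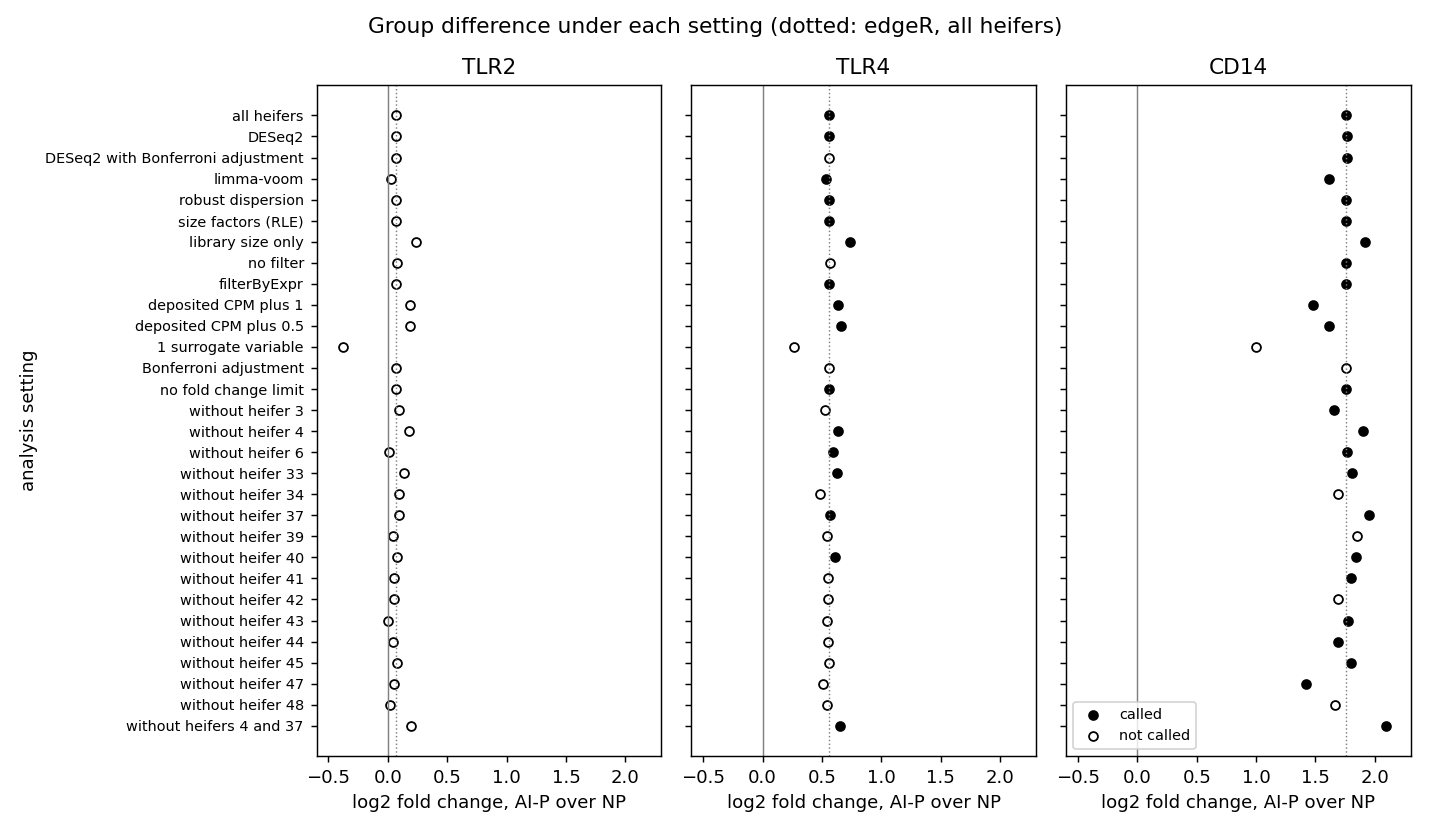
Log2 fold change (AI-P over NP) of each receptor gene with all heifers, under each alternative setting and without each heifer, with filled points where the gene was called. CD14 stays between 1.0 and 2.10 and TLR4 between 0.27 and 0.73, and TLR2 is never called.

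The 3 genes also differed in how much heifers of one group varied. The biological coefficient of variation, which edgeR estimates after removing counting error and group means, was 50.9% for CD14, 23.7% for TLR2 and 21.8% for TLR4. The value of CD14 was above that of 95.5% of all tested genes and of 94% of the 500 genes nearest to it in level. TLR4 lay above 54.6% and TLR2 above 86.8% of the genes nearest to them in level. The wide spread of TLR2 in AI-P heifers came with heifer 4, since the coefficient of variation of its CPM was 27.1% with this heifer and 16% without it, against 15.9% in NP heifers.

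Counting error was small against these spreads for TLR2, where it amounted to 3.75% in AI-P and 3.86% in NP heifers. For CD14 it was 8.86% in AI-P heifers, against an observed coefficient of variation of 66.4%. In NP heifers it was 15.0%, against 46.3%. TLR4 in NP heifers came nearest to counting error, with 7.91% expected from counting and 13.3% observed.

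Ratios within a library show which receptor moved more than another, and do not depend on how libraries are scaled. They are ratios of read counts, and since transcripts differ in length they compare heifers and not the abundance of one gene with that of another. Relative to TLR2, both TLR4 and CD14 were higher in AI-P heifers, and CD14 was also higher relative to TLR4. Each ratio was tested on the log2 scale by an exact permutation test (two-sided), which used all 6435 ways to divide the heifers into 8 and 7, with Benjamini-Hochberg adjustment over the 3 ratios.

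The CD14 count as a percentage of the TLR2 count was lowest at 12.7% in AI-P heifers (heifer 4), with a median of 18.6% and a highest value of 56.9% (heifer 47). In NP heifers it was lowest at 4.05% (heifer 3), with a median of 6.16% and a highest value of 12.6% (heifer 37). This ratio parted the groups without overlap in all 15 heifers, heifers 4 and 37 included. Heifer 4 had a CD14 level among those of the NP heifers (2.45 CPM). Its TLR2 level, by which CD14 is divided here, was the lowest of all (19.3 CPM, next 31.4 CPM in heifer 48). Of the 12269 tested genes other than TLR2, CD14 included, 40 (0.326%) parted the groups in this way when set against TLR2. All 40 were higher in AI-P heifers and 0 in NP heifers. By level alone, 45 of the 12270 tested genes parted the groups as higher in AI-P heifers and 20 as higher in NP heifers. The margin was thin, since the exact 95% interval, from the binomial share of the paired counts, was 8.82% to 17.9% for heifer 4 and 10.2% to 15.5% for heifer 37, so that the order of these heifers is within counting error.

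On the log2 scale the CD14/TLR2 ratio was -2.20 ± 0.72 (SD, n = 8) in AI-P and -3.79 ± 0.59 (SD, n = 7) in NP heifers, a difference of 1.60 (exact permutation test, p = 0.000311, adjusted p = 0.000932). The smallest p that this design allows is 0.000155. The CD14/TLR4 ratio was -0.61 ± 0.66 (SD, n = 8) and -1.70 ± 0.57 (SD, n = 7), a difference of 1.09 (exact permutation test, p = 0.00544, adjusted p = 0.00816). The TLR4/TLR2 ratio was -1.59 ± 0.39 (SD, n = 8) and -2.09 ± 0.18 (SD, n = 7), a difference of 0.50 (exact permutation test, p = 0.00824, adjusted p = 0.00824). All 3 differences kept an adjusted p under 0.05 without each heifer in turn (exact permutation tests, highest adjusted p = 0.0210). The 3 log2 ratios are not independent, since any 2 of them give the third. Small p-values were common between these groups, with 4222 of the 12270 genes tested at an unadjusted edgeR p under 0.05. Mean differences in ratios of other genes were not tested. Without heifers 4 and 37 the differences between the groups were 1.84 for CD14/TLR2, 1.41 for CD14/TLR4 and 0.44 for TLR4/TLR2. With all heifers the CD14/TLR4 ratio was higher in the AI-P heifer in 51 of 56 pairs. Heifers 4 and 37 had its lowest AI-P and its highest NP value, and every pair in the other direction held heifer 4 or heifer 37. Without them it was therefore higher in 42 of 42 pairs by construction. The share of other genes that part the groups in this way was not computed.

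**Figure D3:**
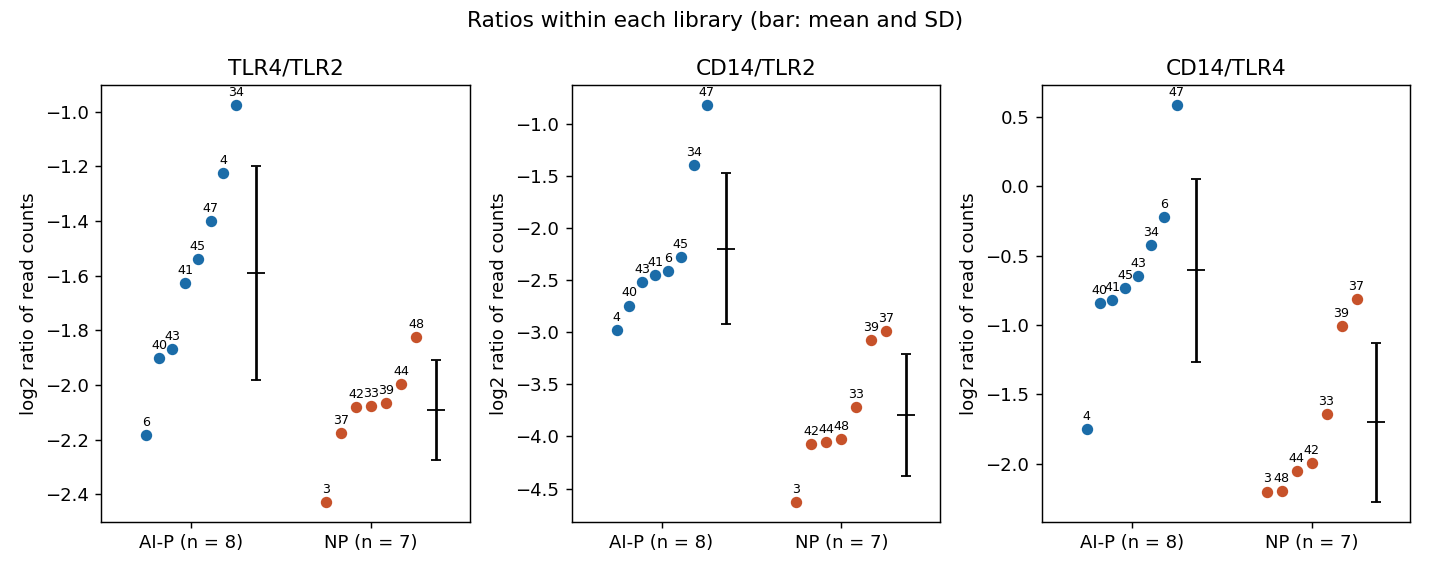
Log2 ratio of read counts for each pair of receptor genes in every heifer, labelled by heifer ID, with the mean and SD of each group. All 8 AI-P heifers lie above all 7 NP heifers for CD14/TLR2, while the groups overlap for the other ratios.

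Single heifers had their own balance of the receptors. Heifer 34 had the highest TLR4 level but ranked 11 of 15 for TLR2, and its TLR4/TLR2 ratio was the highest at 50.9%. Heifer 6 had the opposite balance, ranking 2 for TLR2 and 7 for TLR4, and its TLR4/TLR2 ratio of 22.0% was the lowest of the AI-P heifers and within the NP range of 18.6% to 28.2%. Heifer 4 was lowest of all for TLR2, yet its TLR4/TLR2 ratio of 42.8% was the second highest. In heifer 47 alone the CD14 count exceeded the TLR4 count, with a CD14/TLR4 ratio of 150.3%, against 85.6% in the next heifer (heifer 6).

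TLR4 and CD14 rose and fell together across heifers, while the correlations of TLR2 with either did not pass the test. Differences between the correlations were not tested. Over the 15 heifers, log2 CPM of TLR4 and CD14 had a Pearson r of 0.90 (permutation test, p = 1e-05, the smallest that 100000 permutations can give, adjusted p = 3e-05 over 3 pairs). Spearman's rho was 0.86 (permutation test, p = 0.00011, adjusted p = 0.00033). Without heifers 34 and 47, the 2 farthest from the median of TLR4, r was 0.85 (permutation test, p = 0.00045).

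Both genes also differed between the groups, so the relation was computed within them. With each group centred on its own mean, r of TLR4 with CD14 was 0.80 (permutation test, adjusted p = 0.00138). Centred values were permuted over all 15 heifers and not within groups, so this p takes no account of the centring and may be too small. Within AI-P heifers r was 0.88 (n = 8, exact permutation test, adjusted p = 0.0105), but Spearman's rho of 0.81 did not pass (exact permutation test, adjusted p = 0.0653). Within NP heifers r was 0.50 (n = 7, exact permutation test, adjusted p = 0.353) and rho was 0.54 (exact permutation test, adjusted p = 0.593). Whether r differed between the groups was not tested.

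TLR2 had a Pearson r of 0.47 with TLR4 (permutation test, p = 0.0697, adjusted p = 0.0771) and of 0.47 with CD14 (permutation test, p = 0.0771, adjusted p = 0.0771). Spearman's rho was 0.56 (permutation test, p = 0.0335, adjusted p = 0.0503) and 0.50 (permutation test, p = 0.0622, adjusted p = 0.0622). Without heifers 4 and 43, the 2 farthest from the median of TLR2, r fell to 0.29 with TLR4 (permutation test, p = 0.341) and 0.40 with CD14 (permutation test, p = 0.179). Single heifers moved these values across the threshold in the other direction. Without heifer 3, r was 0.53 with TLR4 and 0.54 with CD14 (permutation tests, adjusted p = 0.0413 for both), and without heifer 34 it was 0.60 and 0.53 (permutation tests, adjusted p = 0.0256 and 0.0489). With each group centred, r was 0.61 with TLR4 and 0.64 with CD14 (permutation tests, adjusted p = 0.0218 for both). These p-values likewise take no account of the centring.

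Within AI-P heifers r of TLR2 was 0.60 with TLR4 and 0.70 with CD14 (n = 8, exact permutation tests, adjusted p = 0.114 for both), and rho was 0.31 and 0.48 (exact permutation tests, adjusted p = 0.462 and 0.365). Within NP heifers it was 0.62 with TLR4 and 0.41 with CD14 (n = 7, exact permutation tests, adjusted p = 0.353 for both), and rho was 0.39 and 0.11 (exact permutation tests, adjusted p = 0.593 and 0.840). None of these passed, and within NP heifers r of TLR2 with TLR4 was above that of TLR4 with CD14.

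**Figure D4:**
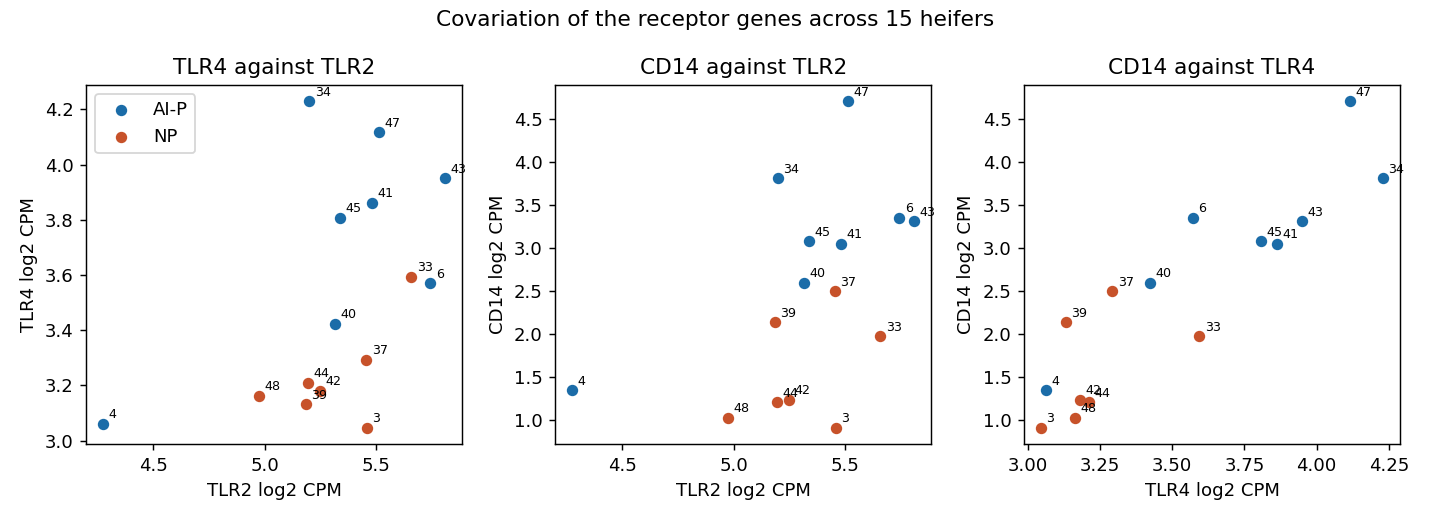
Log2 CPM of each pair of receptor genes in the 15 heifers, coloured by group and labelled by heifer ID. TLR4 and CD14 rise together over the 15 heifers (r of 0.90, but 0.50 within NP heifers). Heifer 4 stands apart at low TLR2 in both panels with that gene.

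The levels moved with measures of the whole library, given here for 9 relations. With the first principal component of the other genes, Pearson r was 0.84 for CD14 (permutation test, adjusted p = 0.00072), 0.82 for TLR4 (permutation test, adjusted p = 0.000945) and 0.60 for TLR2 (permutation test, adjusted p = 0.0210). Spearman's rho was 0.83, 0.86 and 0.64 (permutation tests, adjusted p = 0.00084, 0.00054 and 0.0232). With the TMM factor r was 0.81 for CD14 (permutation test, adjusted p = 0.000945), 0.86 for TLR4 (permutation test, adjusted p = 0.00072) and 0.53 for TLR2 (permutation test, adjusted p = 0.0480), and rho was 0.80, 0.89 and 0.59 (permutation tests, adjusted p = 0.00146, 0.00036 and 0.0346).

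Within groups these relations were positive, but of the 9 in each group only that of TLR4 with the TMM factor in AI-P heifers passed (exact permutation tests, adjusted p = 0.0310, next lowest 0.0665 in AI-P and 0.238 in NP heifers). With the first principal component, r was 0.74 for CD14, 0.80 for TLR4 and 0.89 for TLR2 within AI-P heifers, and 0.65, 0.48 and 0.66 within NP heifers. Without the 2 heifers farthest from the median of that component, r was 0.86, 0.81 and 0.56. For the TMM factor r was 0.69, 0.89 and 0.68 within AI-P heifers and 0.64, 0.55 and 0.77 within NP heifers, and without its 2 farthest heifers 0.79, 0.87 and 0.39. With total counts r over all heifers was between 0.10 and 0.36 (permutation tests, lowest adjusted p = 0.242). It was 0.21 for CD14, 0.32 for TLR4 and 0.25 for TLR2 within AI-P heifers and 0.36, 0.58 and 0.70 within NP heifers, and without the 2 heifers farthest in total counts it was 0.04, -0.12 and 0.38. Scaling by library size alone shifted all genes (median log2 fold change 0.18, against 0.01 with TMM) and gave 1.92 for CD14, 0.73 for TLR4 and 0.23 for TLR2, with the same calls. With the surrogate variable the log2 fold change of TLR2 was -0.38, which was not called (edgeR adjusted p = 0.451). The part of cell makeup in these relations was not tested.

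Among the 12269 other genes, likeness was measured by Pearson r of log2 CPM over the 15 heifers, as a description. CD14 ranked 11 in likeness to TLR4, and TLR4 ranked 42 in likeness to CD14. TLR4 ranked 2013 and CD14 2087 in likeness to TLR2. With each group centred, CD14 ranked 49 in likeness to TLR4 and TLR4 ranked 62 in likeness to CD14, while both moved up to 1288 and 1048 for TLR2.

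High correlations were common, with a median absolute r of 0.49 for CD14, 0.49 for TLR4 and 0.37 for TLR2, and all points share the libraries described above. An r of at least 0.8 was shared with 316 genes by CD14 (2.58%), with 250 genes by TLR4 (2.04%) and with 41 genes by TLR2 (0.334%). An r of -0.8 or below was found for 410, 460 and 9 genes. With groups centred the first of these numbers became 61 for CD14, 47 for TLR4 and 99 for TLR2.

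The 5 genes most like each receptor gene had r between 0.95 and 0.98 for CD14, between 0.91 and 0.93 for TLR4 and between 0.87 and 0.93 for TLR2, and the 15 genes were all different. The deposited tables do not pair these IDs with names, so only the closest gene to each is given. ENSBTAG00000009513 had an r of 0.98 and a rho of 0.98 with CD14, and r was 0.97 within AI-P and 0.95 within NP heifers. Its level was 40.7 to 197.6 CPM in AI-P heifers (median 99.6) and 25 to 61.7 CPM in NP heifers (median 36.6). ENSBTAG00000016896 had an r of 0.93 and a rho of 0.93 with TLR4, with 0.91 within AI-P and 0.78 within NP heifers. It ranged from 56.0 to 86.8 CPM in AI-P heifers (median 70.0) and from 48.6 to 64.2 CPM in NP heifers (median 57.3). ENSBTAG00000006369 had an r of 0.93 and a rho of 0.77 with TLR2, with 0.94 within AI-P and 0.86 within NP heifers. It ranged from 14.6 to 36.2 CPM in AI-P heifers (median 28.9) and from 22.1 to 34.4 CPM in NP heifers (median 25.8).

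**Figure D5:**
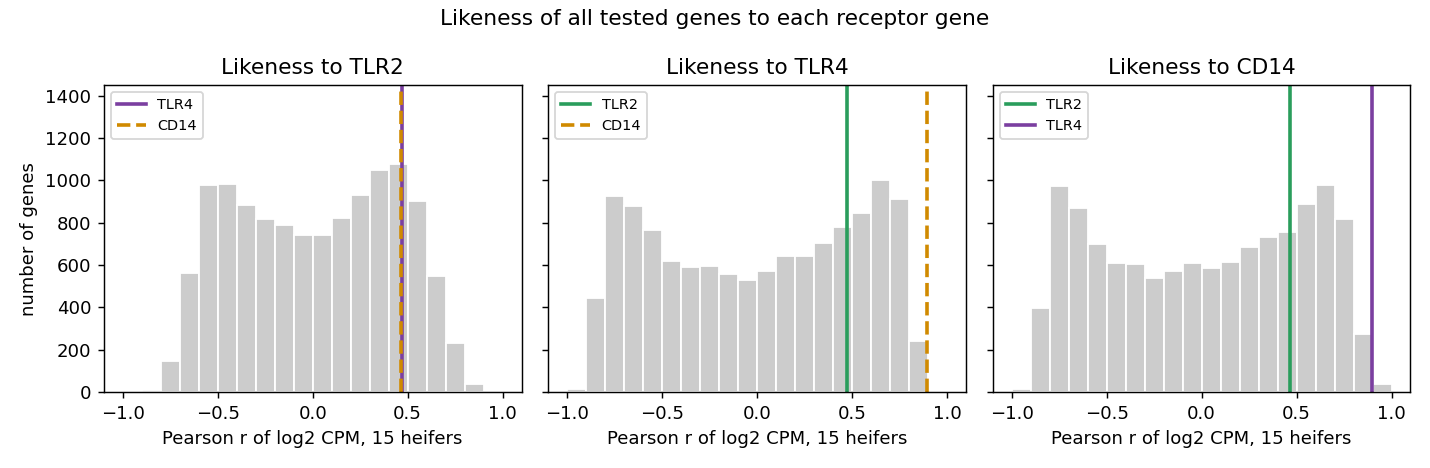
Number of genes by their Pearson r of log2 CPM with each receptor gene over 15 heifers, in steps of 0.1, with lines at the other receptor genes. CD14 and TLR4 lie at the right edge of each other's distribution (r of 0.90), and both lie at 0.47 in that of TLR2.

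In the RefSeq gene table of the later assembly ARS-UCD2.0, matched by symbol, all 3 are protein-coding genes. The span of TLR2 overlaps that of RNF175 there, and that table gives no strand. The study's methods do not say whether counting used strand, so the TLR2 counts are uncertain to the extent that reads of these genes overlap. No other gene of the table overlaps the span of TLR4 or CD14.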

How the data were processed

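PWBC libraries of 15 heifers were analysed, grouped by the pregnancy outcome in the labels. The authors aligned the reads to the Ensembl ARS-UCD1.2 genome and counted them per gene with STAR 2.7.5, and deposited raw counts per gene without normalization. The authors also deposited CPM values, computed with edgeR 3.28.1 over the 12270 genes left by their filter, with no composition factor. The annotation release is not given in the sources used here.

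From the raw counts, genes reaching a CPM of 1 in 8 or more heifers were kept, and the groups were compared with edgeR 4.0.16 (R 4.3.3; TMM, quasi-likelihood test, pregnancy status as the only term, Benjamini-Hochberg adjustment over all genes). Standard errors were taken as the size of the log2 fold change over the root of its F statistic. Log2 CPM for correlations had a prior count of 2. Permutation tests used Python 3.11.15, numpy 2.4.6 and scipy 1.17.1, with 100000 permutations or all of them where a group had fewer than 10 heifers. Scripts were tested on simulated data.

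Alternatives were DESeq2 1.42.0, limma-voom, limma with the CPM as deposited (log2, pseudocount 1 or 0.5; limma 3.58.1), robust dispersion, other scalings and filters, 1 surrogate variable (sva 3.50.0), Bonferroni adjustment (which the study's summary names), no fold change limit, and heifers left out. A Bonferroni adjustment of the DESeq2 p-values was chosen after seeing the data. The members, lists and tests were chosen with earlier results of these data known. Gene names rest on the given IDs. Of the planned rule for named genes (the receptors, the 5 genes most like each, and genes of pathway and marker lists), only the first 2 parts could be applied, and 3 of the 15 most like genes are printed. The 7 pathway lists and 9 marker lists were not run, since no table used here links IDs to names, and for the same reason no position, length or sequence is given. The range of depth is in the report, and CD14, with 26 to 457 counts, is the least precise.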

Additional observations from a re-analysis of the deposited data

Results flagged for a closer look

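Gaps were looked for in 12 sets of heifers (3 levels and 3 ratios in each group), and 1 set had a heifer far from the others, where chance gives about 1 in 20. Heifer 33 had the highest TLR4 level of the NP heifers, 12 CPM against 9.69 CPM for the next (heifer 37), a gap of 0.597 of the range of this group, above Dixon's 95% critical value for 7 heifers. The same heifer had the highest TLR2 level of its group (50.5 CPM), and its TLR4/TLR2 ratio of 23.7% equalled the median of the NP heifers. Its CD14 level of 3.83 CPM was the third highest of the NP heifers. Without heifer 33 the log2 fold change of TLR4 was 0.63 and the gene was called (edgeR adjusted p = 0.0467). Why this heifer stood apart was not tested.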

How the results depend on the processing

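CD14 was called in 12 of 14 alternatives and TLR4 in 10 of 14 (single heifers apart), and TLR2 in none. Among the 14, dropping the fold change limit reuses the main fit and cannot lose a call. The omission of heifers 4 and 37 favours a call. With 1 surrogate variable the log2 fold changes were 1.0 for CD14, 0.27 for TLR4 and -0.38 for TLR2, which was a change of direction, and Bonferroni adjustment in edgeR lost both calls (1.75 and 0.56). DESeq2 with Bonferroni adjustment, the tool and adjustment that the study names, was added after the data were seen and called CD14 (1.76, adjusted p = 0.0494) but not TLR4 (0.56, adjusted p = 1). Without a filter TLR4 kept its size (0.56) but not its call (edgeR adjusted p = 0.0537), with 20583 genes tested in place of 12270. Over all 14, adjusted p-values ran from 0.000466 (CD14, DESeq2) and 0.00293 (TLR4, without heifers 4 and 37) to 1. With single heifers left out the log2 fold change was 1.42 to 1.95 for CD14, 0.48 to 0.64 for TLR4 and 0.0042 to 0.17 for TLR2. The correlation of TLR2 passed 0.05 with library size only (0.67 with TLR4 and 0.64 with CD14) and with groups centred (0.61 and 0.64), and with single heifers left out it ran from 0.39 to 0.60 with TLR4 and from 0.42 to 0.54 with CD14. The cause was not tested. The correlation of TLR4 with CD14 over both groups and the 3 ratios stayed past 0.05 in every alternative run for them. The surrogate variable was not among these alternatives. Within NP heifers alone that correlation did not pass (r of 0.50, exact permutation test, adjusted p = 0.353). Over all genes, 718 were called (449 higher in AI-P heifers). DESeq2 called 1116 and, with Bonferroni adjustment, 92, no filter gave 448, Bonferroni adjustment in edgeR 4, no fold change limit 1491, omission of heifers 4 and 37 gave 2451, and single heifers left out gave 81 to 1856. With 1 surrogate variable edgeR called 0, with 1158 genes at an unadjusted p under 0.05, against 4222 without that variable. No other tool was run with it, and its relation to pregnancy status was not tested. With library size only 917 of 1013 calls were higher in AI-P heifers, and with the deposited CPM plus 1 and plus 0.5 844 of 935 and 910 of 1003. No paired analysis was possible because each heifer belongs to 1 group and the labels give no number that groups share. Depth limits CD14 in NP heifers, with 26 to 101 counts. The planned counts over pathway lists and relations with marker lists were not run.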
